A study of Mus musculus with 2 samples.

Results

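Of the 32285 genes counted in dissociated mouse liver, 10 that belong to fibroblast growth factor (FGF) and hepatocyte growth factor (HGF) signaling were followed across cell classes. They were taken by gene symbol. They were the receptors Fgfr1, Fgfr2, Fgfr3 and Fgfr4, the co-receptor gene Klb, the ligands Fgf21, Fgf1 and Hgf, the HGF receptor Met, and Hgfac, which encodes the protease that activates HGF. Each gene was found on 1 row of both matrices. There was 1 single-cell library of WT liver and 1 of N-LKO liver plus tumor. N-LKO mice carry loxP-flanked alleles of Nus1, which encodes the cis-prenyltransferase subunit NgBR, and Cre from the albumin promoter, which drives the deletion in hepatocytes. The WT library has the genotype label CTRL, and its floxed or Cre status is not given in the sources used here. All mice were male and on a C57BL6 background. Both groups received the diet for 16 weeks, named a Western diet in the treatment labels and a high-fat diet in the titles. Hepatocytes and nonparenchymal cells were mixed in equal parts for both libraries, and a smaller part of tumor cells was added for N-LKO. Genotype, tumor tissue and library therefore cannot be told apart, and with 1 library per group no difference has a replicate check. Intervals given below are 95% intervals that cover counting error only.

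FGF receptors are tyrosine kinases that need a partner at the cell surface. Heparan sulfate chains serve paracrine ligands such as FGF1, while the endocrine ligands FGF15 and FGF21 need beta-klotho, the product of Klb. In liver, FGFR4 with beta-klotho receives the gut signal that lowers bile acid synthesis, and hepatocytes are the main source of circulating FGF21, which is induced by the amino acid and stress factor ATF4 and by the fasting factor PPARalpha. HGF is made by nonparenchymal cells as an inactive chain, is cut by proteases such as the Hgfac product, and acts on MET in epithelial cells, where it drives growth after liver injury.

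The region before the Fgf21 start site is shown because both inputs named above act at the promoter, and Fgf21 was the member that differed most between the hepatocyte-like cells of the libraries. It is set beside the same window of Fgfr4 and Klb, which encode a receptor pair with other levels. The windows hold the 250 bases before the RefSeq start (GRCm38.p6), 5′ to 3′ on the gene's strand: chr7:45615491-45615740 on the minus strand for Fgf21, chr13:55152568-55152817 on the plus strand for Fgfr4 and chr5:65348161-65348410 on the plus strand for Klb. Capitals mark matches to the motifs searched.

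Fgf21: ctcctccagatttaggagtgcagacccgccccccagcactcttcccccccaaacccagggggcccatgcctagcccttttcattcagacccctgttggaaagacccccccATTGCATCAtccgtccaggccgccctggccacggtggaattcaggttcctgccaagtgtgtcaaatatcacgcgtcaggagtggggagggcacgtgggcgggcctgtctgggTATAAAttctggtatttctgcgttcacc
Fgfr4: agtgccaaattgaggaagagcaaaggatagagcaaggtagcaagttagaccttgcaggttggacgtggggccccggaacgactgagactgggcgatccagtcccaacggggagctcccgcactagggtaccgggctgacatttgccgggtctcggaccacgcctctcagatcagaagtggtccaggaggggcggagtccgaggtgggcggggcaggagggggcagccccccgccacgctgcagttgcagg
Klb: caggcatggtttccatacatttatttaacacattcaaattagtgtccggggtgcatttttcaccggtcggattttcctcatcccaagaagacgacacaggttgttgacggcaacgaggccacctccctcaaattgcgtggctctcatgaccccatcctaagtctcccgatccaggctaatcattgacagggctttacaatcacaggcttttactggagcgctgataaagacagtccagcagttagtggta

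The motif TGATGNAAT, the form of the element bound by C/EBP and ATF factors, was searched on both strands. It was present in 268 of 32851 promoter windows of this length (0.816%). Fgf21 was the one member with a match among the 8 that had a window, on the opposite strand from 140 to 132 bases before the start. TATAAA, the TATA box, was found 28 to 23 bases before the Fgf21 start and in 12.4% of all windows. The direct repeat bound by PPARalpha with its partner, a pair of AGGTCA with any 1 base between them, was in 11 windows (0.0335%) and in no member's window. The 2 motifs matched in Fgf21 did not overlap.

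In the GENCODE vM21 annotation of GRCm38, the receptor genes lie at chr8:25513654-25575718 (Fgfr1, plus strand), chr5:33721674-33737068 (Fgfr3, plus), chr13:55152640-55168759 (Fgfr4, plus), chr5:65348314-65384007 (Klb, plus) and chr6:17463800-17573980 (Met, plus). The ligand and protease genes lie at chr7:45613886-45615490 (Fgf21, minus), chr18:38838673-38929472 (Fgf1, minus), chr5:16553495-16620152 (Hgf, plus) and chr5:35041509-35048461 (Hgfac, plus). Fgfr2 is described with its values.

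Levels were compared as UMIs (unique molecular identifiers, counted transcripts) scaled to CPM, counts per 1000000 UMIs of a class, and a ratio is N-LKO over WT on the log2 scale with 0.5 UMI added to each sum. Classes were rebuilt by clustering and named from marker genes. Of 18435 WT and 19850 N-LKO cells, 17253 and 15877 were in named classes, with 9637 and 2096 called hepatocyte-like. A further pair of clusters, with 320 WT and 2000 N-LKO cells, was rich in the nuclear RNA Malat1 (35856 CPM in WT and 20078 in N-LKO, against 8047 and 4517 CPM in hepatocyte-like cells), was left unnamed and is called Malat1-rich. The libraries hardly shared hepatocyte clusters: cluster 0 held 8353 WT and 95 N-LKO cells, and cluster 5 held 116 and 1986. The summed level of the 8 hepatocyte markers was similar, at 42415 and 43908 CPM, and it was 14751 and 9467 CPM in T-like cells, which do not make these transcripts. The T-like class includes natural killer cells. Its 6 natural killer markers summed to 847 CPM in WT and 459 in N-LKO, and its 6 T markers to 913 and 468. Free RNA was read from barcodes under 500 UMIs, and its estimated share of the UMIs of hepatocyte-like cells was 86.6% in WT and 35.7% in N-LKO. Nus1, the deleted gene, had 1201 UMIs in WT hepatocyte-like cells (74.3 CPM, 70.2 to 78.7) and 179 in N-LKO (38.8 CPM, 33.3 to 44.9). Its log2 ratio was −0.93 there (−1.17 to −0.71). Free RNA held Nus1 at 57.8 and 37.4 CPM. With the estimated free RNA part taken off and the total kept, 24.3 CPM was left in WT hepatocyte-like cells and 25.5 in N-LKO. That scale takes a larger part off WT than off N-LKO, and its median log2 ratio over all genes was 1.54. The lower N-LKO level of Nus1 was not seen on that scale, where 63.2% of all genes were past 2-fold higher. In endothelial-like cells Nus1 stood at 90.5 and 94.1 CPM.

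**Figure D1:**
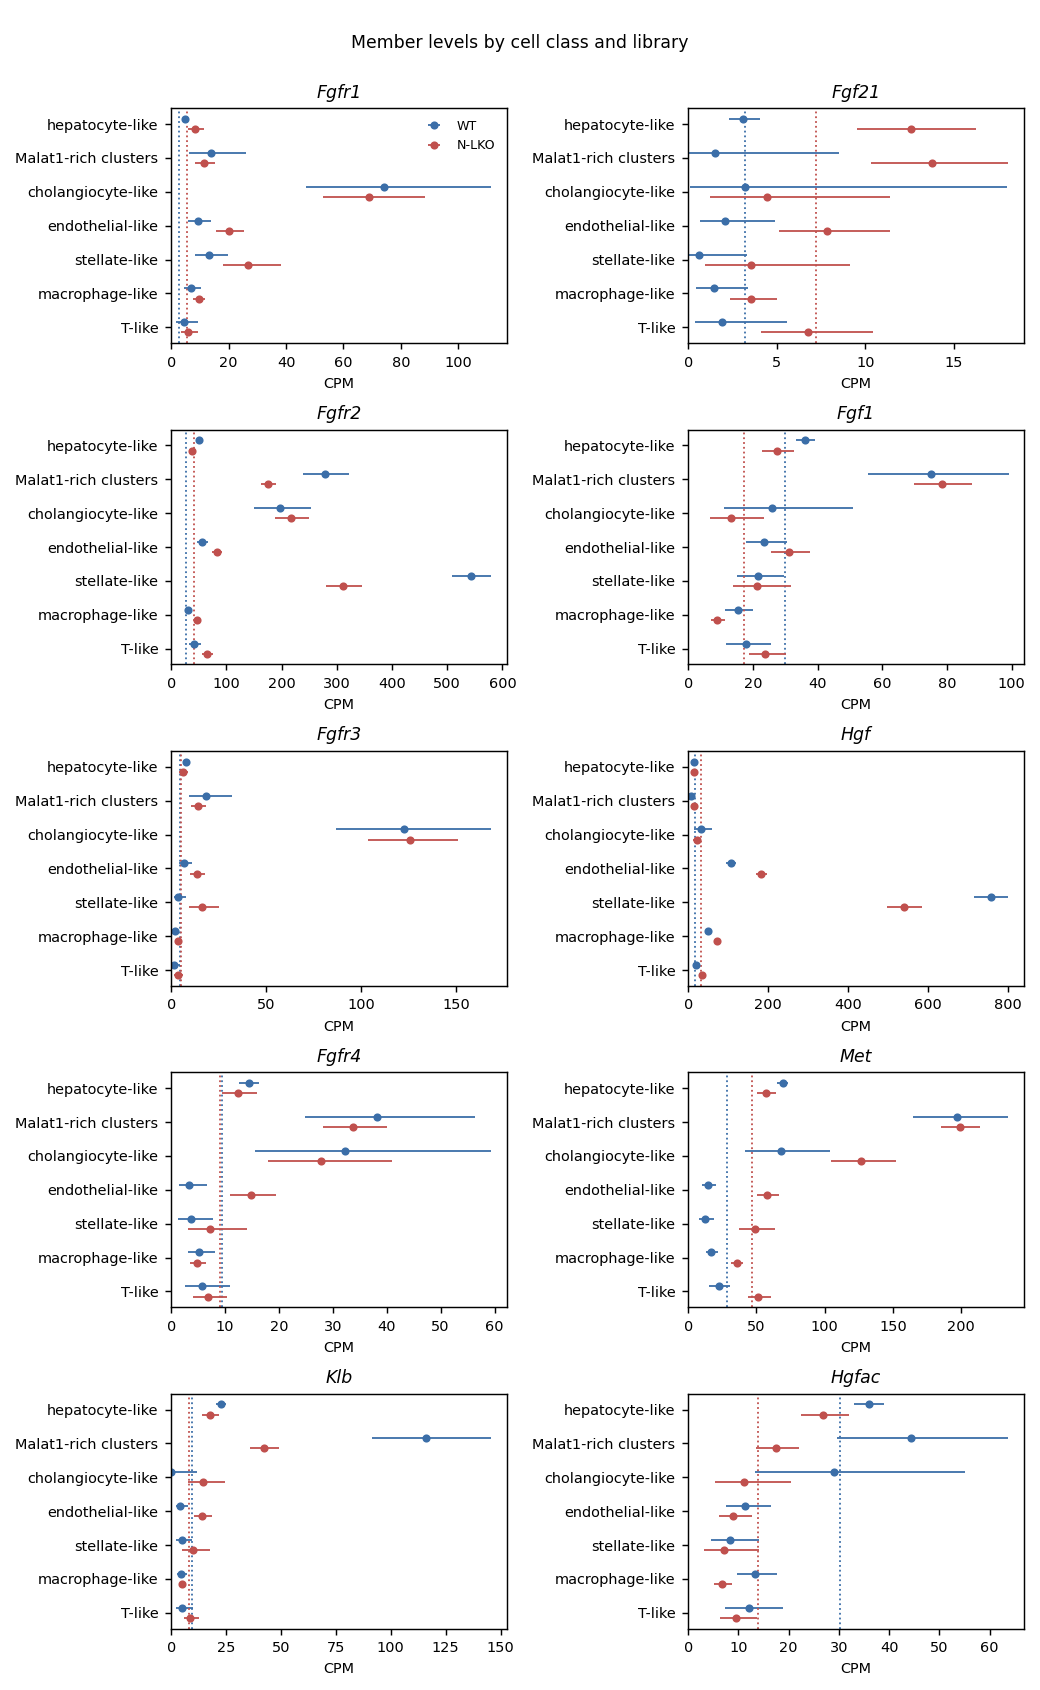
Levels of the 10 members in 6 named cell classes and the Malat1-rich clusters of both libraries (blue, WT; red, N-LKO), in CPM on linear axes that differ between genes, with exact Poisson 95% intervals as error bars and dotted lines at the free RNA level of each library. Fgfr2 and Hgf stood highest in stellate-like cells, Fgfr1 and Fgfr3 in cholangiocyte-like cells, in both libraries.

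The receptors differed in the class where they were highest, among the named classes. Fgfr1 and Fgfr3 were highest in cholangiocyte-like cells, Fgfr2 in stellate-like cells, and Fgfr4 in cholangiocyte-like cells, followed by hepatocyte-like cells in WT and by endothelial-like and then hepatocyte-like cells in N-LKO. Fgfr1 had 23 UMIs in WT cholangiocyte-like cells (74.2 CPM, 47.1 to 111) and 62 in N-LKO (68.9 CPM, 52.8 to 88.3). The level in hepatocyte-like cells was 4.70 CPM in WT and 8.45 in N-LKO. Fgfr1 was therefore mainly a gene of the bile duct class in both libraries, and its interval there lay apart from that of the next class. The markers of this class include Epcam and Spp1, which the study also names for its cancer-enriched N-LKO hepatocytes. Whether tumor cells entered the class was not tested.

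Fgfr3, a receptor for paracrine FGFs, had 38 UMIs in WT cholangiocyte-like cells (123 CPM, 86.8 to 168) and 113 in N-LKO (126 CPM, 104 to 151). The log2 ratio was 0.02, with an interval from −0.51 to 0.60. In hepatocyte-like cells Fgfr3 stood at 7.61 and 6.07 CPM, far below the bile duct class. After thinning every cell to 1000 UMIs, 13.6% of WT and 11.8% of N-LKO cholangiocyte-like cells had an Fgfr3 UMI. Fgfr3 shares 998 exonic bases with G630022F23Rik and Fgfr1 shares 164 with Gm16159, both on the opposite strand. Hgf shares 484 with Gm43489 on its own strand. The effect of these overlaps on the counts was not tested.

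Fgfr2, whose product also receives paracrine FGFs, had its highest level in stellate-like cells, then cholangiocyte-like and then endothelial-like cells, and these neighbors had intervals that did not overlap. Stellate-like cells are the pericyte-like, vitamin A storing cells of the liver. They held 912 Fgfr2 UMIs in WT (543 CPM, 509 to 580) and 349 in N-LKO (311 CPM, 280 to 346), a log2 ratio of −0.80 (−0.99 to −0.62). The stellate level was thus lower in N-LKO by more than counting error, but not past 2-fold. The 8 stellate markers summed to 9378 CPM in WT and 5268 in N-LKO in these cells, the 8 endothelial markers to 3622 and 1786, and mitochondrial UMIs made up 10.5% and 16.0%. Their part in the lower Fgfr2 and Hgf levels was not tested. At 1000 UMIs per cell an Fgfr2 UMI was seen in 40.4% of the WT stellate-like cells and 25.0% of the N-LKO ones. T-like cells, which should hold little of this gene, had it in 3.61% and 5.27%, at median depths of 1190 and 1358.5 UMIs against 1695 and 1584 in stellate-like cells.

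Fgfr2 in T-like cells went the other way, with 66 UMIs in WT (42.0 CPM) and 193 in N-LKO (65.0 CPM). Free RNA alone would give 13.6 and 18.3 CPM there. The annotated Fgfr2 gene (GENCODE vM21, GRCm38, chr7:130162451-133123350, minus strand) spans 2961 kb because of 1 long transcript, while the RefSeq span is 104 kb. In that annotation 36 genes on the same strand lie within the long span, and 314 exonic bases are shared with Ctbp2. The source of the T-like UMIs was not tested.

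Fgfr4, the bile acid receptor partner of beta-klotho, had 232 UMIs in WT hepatocyte-like cells (14.4 CPM, 12.6 to 16.3) and 57 in N-LKO (12.4 CPM, 9.36 to 16.0). The log2 ratio was −0.21 (−0.66 to 0.21), so no difference was detectable at this depth. Free RNA barcodes held Fgfr4 at 9.43 and 9.02 CPM. Cholangiocyte-like cells had 32.3 CPM in WT and 27.8 in N-LKO, from 10 and 25 UMIs, and their interval overlapped that of hepatocyte-like cells in WT and lay above it in N-LKO (17.98 to 41.0). Malat1-rich cells had 25 UMIs in WT (38.2 CPM, 24.7 to 56.4) and 130 in N-LKO (33.8 CPM, 28.2 to 40.1). These intervals overlapped those of cholangiocyte-like cells.

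Klb, the beta-klotho gene, had 363 UMIs in WT hepatocyte-like cells (22.5 CPM, 20.2 to 24.9) and 81 in N-LKO (17.6 CPM, 13.9 to 21.8). The log2 ratio was −0.35 (−0.72 to −0.00). Malat1-rich cells carried more Klb and differed more between libraries, with 76 UMIs in WT (116 CPM, 91.6 to 145) and 162 in N-LKO (42.1 CPM, 35.9 to 49.1). There the ratio of −1.47 (−1.87 to −1.05) passed the 2-fold limit, but it sets 1 cluster against another, since 319 of the WT cells were in cluster 17 and 1993 of the N-LKO cells in cluster 6. With hepatocyte-like and Malat1-rich cells pooled the ratio was 0.14, and Malat1-rich cells made up more of the N-LKO library. In cholangiocyte-like cells Klb had 0 UMIs in WT, where 3 UMIs would be 9.68 CPM, and 13 in N-LKO (14.4 CPM, 7.69 to 24.7).

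Fgf21, the endocrine ligand, was the member past 2-fold in hepatocyte-like cells. It had 50 UMIs in WT (3.09 CPM, 2.30 to 4.08) and 58 in N-LKO (12.6 CPM, 9.55 to 16.3), a log2 ratio of 2.02 (1.45 to 2.60). The WT level equalled that of free RNA, which was 3.18 CPM (2.08 to 4.67), while the N-LKO level lay above the free RNA level of 7.21 CPM (5.24 to 9.69), with intervals that just overlapped. Over all genes at 5 CPM or more in at least 1 library, 5.61% of 9889 were past 2-fold higher in N-LKO hepatocyte-like cells and 2.83% past 2-fold lower. Of the 10 members, all at that level, 1 was past the limit upward and 0 downward. Fgf21 and Fgfr1 reached 5 CPM in N-LKO alone.

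Ratios above 0 were also seen in other classes, from few UMIs in WT. Malat1-rich cells had 1 Fgf21 UMI in WT and 53 in N-LKO (13.8 CPM), endothelial-like cells had 5 and 27 (2.11 and 7.82 CPM), and T-like cells had 3 and 20 (1.91 and 6.73 CPM). The N-LKO levels of endothelial-like and T-like cells were at or near that of free RNA. At 1000 UMIs per cell an Fgf21 UMI was found in 0.36% of WT hepatocyte-like cells (0.25 to 0.50, Clopper-Pearson interval) and 1.10% of N-LKO ones (0.70 to 1.64). In T-like cells the shares were 0.08% and 0.52%, so the part of free RNA in the Fgf21 difference was not tested.

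Fgf1, the paracrine ligand that binds every FGF receptor, had 584 UMIs in WT hepatocyte-like cells (36.1 CPM) and 127 in N-LKO (27.5 CPM), a log2 ratio of −0.39 (−0.68 to −0.11). Free RNA held it at 29.9 and 17.2 CPM, close to the hepatocyte-like level in WT. With the estimated free RNA part taken off and the total kept, the direction turned, to 10.3 CPM in WT against 21.4 in N-LKO. On that scale the median log2 ratio over all genes was 1.54, above the 1.06 of Fgf1. With the total reduced as well, Fgf1 was at −1.20 and that median at −0.993. In Malat1-rich cells Fgf1 was 74.9 CPM in WT and 78.5 in N-LKO. Of the 10 members, 2 were past 2-fold higher in N-LKO Malat1-rich cells (Fgf21, and Hgf with 4 and 60 UMIs), where 16.9% of all genes were, and 2 were past 2-fold lower (Klb and Hgfac), where 11.7% were.

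**Figure D2:**
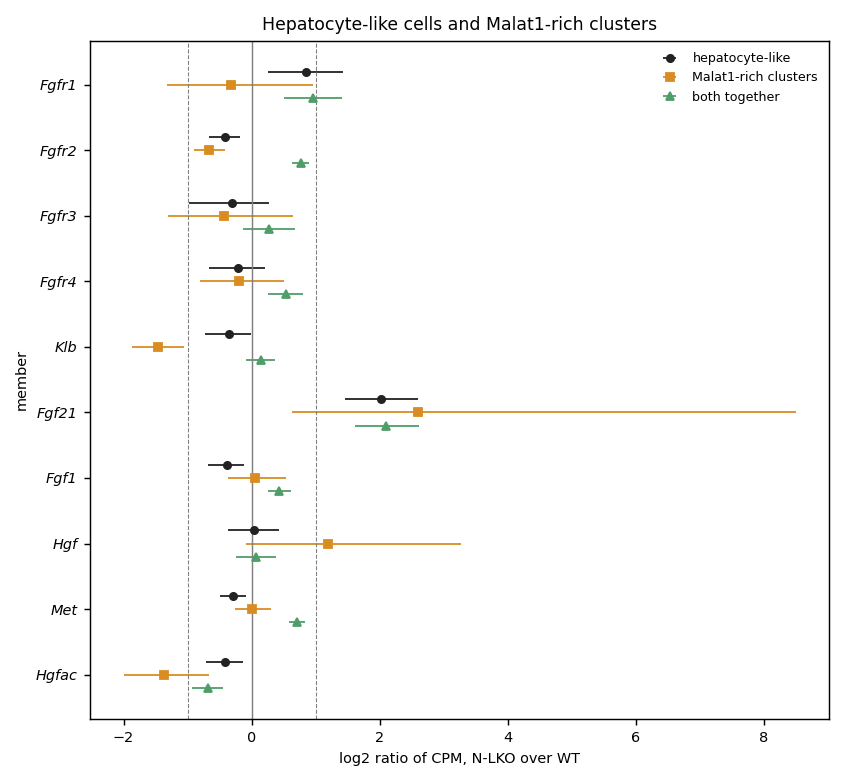
Log2 ratios of N-LKO over WT for the 10 members in hepatocyte-like cells, in Malat1-rich cells and in both together, with exact conditional binomial 95% intervals as error bars and dashed lines at the 2-fold limits. Fgf21 lies past the upper limit in all 3 sets of cells, while Fgfr2 is below 0 in each group of cells and above 0 in both together.

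Hgf was a gene of stellate-like cells, followed by endothelial-like cells, in both libraries and with intervals that did not overlap. Stellate-like cells held 1270 Hgf UMIs in WT (757 CPM, 716 to 800) and 605 in N-LKO (540 CPM, 498 to 585), a log2 ratio of −0.49 (−0.63 to −0.35). Endothelial-like cells held 254 in WT (107 CPM, 94.2 to 121) and 633 in N-LKO (183 CPM, 169 to 198), a log2 ratio of 0.78 (0.56 to 0.99). The class with the highest level thus stood lower and the next class higher in N-LKO, both by more than counting error and neither past 2-fold. The stellate markers that were lower in N-LKO, given with Fgfr2, apply here too. The share of cells with an Hgf UMI at 1000 UMIs followed the levels, at 51.7% (48.4 to 55.0) in WT and 39.9% (36.1 to 43.9) in N-LKO stellate-like cells and at 9.38% and 15.4% in endothelial-like cells. In T-like cells it was 2.02% and 2.69%.

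Macrophage-like cells had 176 Hgf UMIs in WT (50.7 CPM, 43.5 to 58.8) and 621 in N-LKO (73.1 CPM, 67.4 to 79.0), a log2 ratio of 0.52 (0.28 to 0.78). Cluster 1, led by the Kupffer cell genes Cd5l, Clec4f and Vsig4, had 61.2 CPM in WT and 88.3 in N-LKO. In hepatocyte-like cells Hgf was 15.2 and 15.6 CPM, against 13.9 and 11.8 CPM that free RNA alone would give. Free RNA itself held Hgf at 16.0 CPM in WT and 33.1 in N-LKO, so free RNA moved in the same direction as the endothelial and macrophage values, and its part in them was not tested.

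Met, the HGF receptor, was highest in hepatocyte-like and cholangiocyte-like cells in WT and in cholangiocyte-like cells in N-LKO, where endothelial-like and neutrophil-like cells stood level with hepatocyte-like cells. It had 1120 UMIs in WT hepatocyte-like cells (69.3 CPM, 65.3 to 73.5) and 262 in N-LKO (56.8 CPM, 50.1 to 64.1), a log2 ratio of −0.29 (−0.49 to −0.09). Cholangiocyte-like cells had 21 UMIs in WT (67.8 CPM, 41.9 to 104) and 114 in N-LKO (127 CPM, 105 to 152), a log2 ratio of 0.88 (0.22 to 1.65). Their interval overlapped that of hepatocyte-like cells in WT and lay above it in N-LKO. The part of tumor cells in the N-LKO value was not tested. In Malat1-rich cells Met was 197 CPM in WT and 199 in N-LKO.

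Met was past 2-fold higher in 4 nonepithelial classes and not in the other 5 with a ratio, which ran from −0.08 in plasma-like to 0.98 in B-like cells. Endothelial-like cells went from 35 UMIs (14.7 CPM, 10.3 to 20.5) to 200 (57.9 CPM, 50.2 to 66.5), a log2 ratio of 1.96 (1.45 to 2.54), where free RNA alone would give 13.7 and 21.5 CPM. The ratio was 1.95 in stellate-like cells (12.5 and 49.1 CPM), 1.06 in macrophage-like cells (17.0 and 35.6 CPM) and 1.20 in T-like cells (22.3 and 51.5 CPM). Met was 28.2 CPM in the free RNA barcodes of WT and 46.9 in those of N-LKO, so the WT levels lay below it in all 4 classes, while the N-LKO levels lay below it in macrophage-like cells and near or above it in the other classes. The part of free RNA was not tested.

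Hgfac, the gene of the HGF activator protease, was highest in hepatocyte-like cells, with 580 UMIs in WT (35.9 CPM, 33.0 to 38.9) and 124 in N-LKO (26.9 CPM, 22.4 to 32.0). The log2 ratio was −0.41 (−0.71 to −0.14). In Malat1-rich cells it went from 29 UMIs (44.4 CPM) to 67 (17.4 CPM), a ratio of −1.36 (−2.00 to −0.67), and free RNA from 30.1 to 13.9 CPM. With the estimated free RNA part taken off and the total kept, the hepatocyte-like direction turned, to 9.81 CPM in WT against 21.9 in N-LKO. On that scale the median log2 ratio over all genes was 1.54, above the 1.16 of Hgfac, and it was 0.07 before. The direction of Hgfac in hepatocyte-like cells therefore depended on free RNA handling, which moved most genes upward on that scale.

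**Figure D3:**
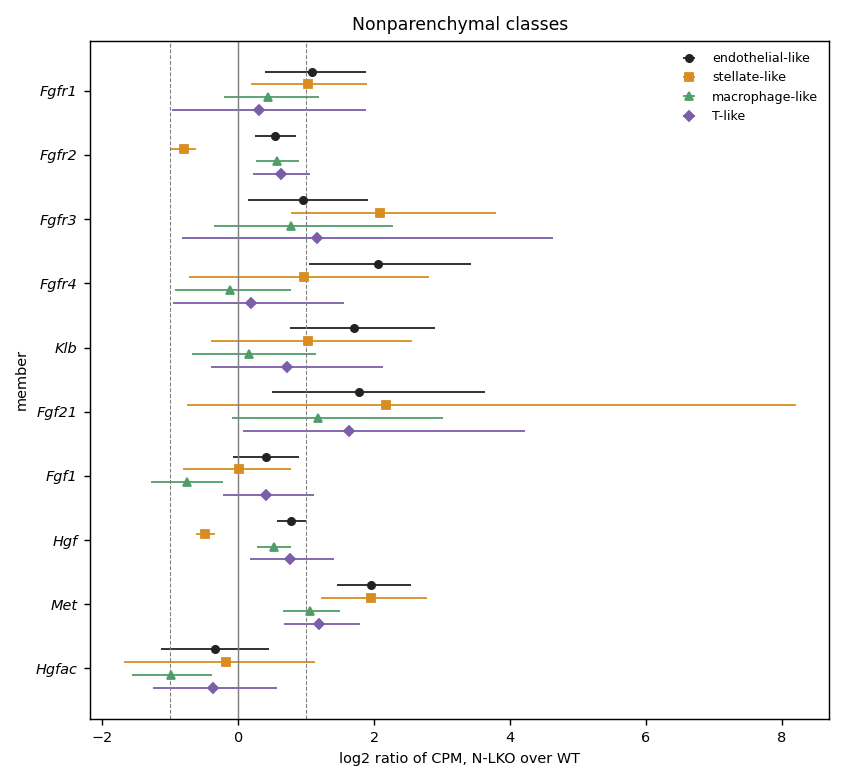
Log2 ratios of N-LKO over WT for the 10 members in endothelial-like, stellate-like, macrophage-like and T-like cells, with exact conditional binomial 95% intervals as error bars and dashed lines at the 2-fold limits. Met lies above the upper limit in all 4 classes, and Hgf and Fgfr2 lie below 0 in stellate-like and above 0 in endothelial-like cells.

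In endothelial-like, stellate-like, macrophage-like and T-like cells, 12 member ratios were past 2-fold, all higher in N-LKO. They were 5 of 10 members in endothelial-like cells (Fgfr1, Fgfr4, Klb, Fgf21 and Met), where 12% of all genes were past the limit upward and 7.4% downward, and 4 of the 9 that reached 5 CPM in stellate-like cells (Fgfr1, Fgfr3, Klb and Met), where 10.7% and 8.74% were. In macrophage-like cells it was Met alone of 7, against 4.47% upward and 5.84% downward, and in T-like cells Fgf21 and Met of 9, against 12% and 8.06%. Cholangiocyte-like cells, 199 in WT, were not counted, nor were the smaller blood-derived classes. In the blood-derived classes Hgfac was past 2-fold lower in dendritic-like (−1.60, 6 and 5 UMIs) and plasmacytoid dendritic-like cells (−2.47, 3 and 1). It also was in neutrophil-like (−1.83, 3 and 7 UMIs) and plasma-like cells (−1.14, 4 and 5), and all these intervals included 0. From 11.7% (dendritic-like) to 22.9% (neutrophil-like and plasma-like) of all genes were past 2-fold lower there. Other members passed the limit there in both directions, among them Fgfr1 upward in plasmacytoid dendritic-like cells (0 and 24 UMIs). The members' median log2 ratio was 1.02 in endothelial-like cells and 0.97 in stellate-like cells, beside 0.09 and −0.06 over all genes. The stellate-like median was the ratio of Fgfr4, from 6 and 8 UMIs, with an interval from −0.72 to 2.80. In endothelial-like cells Fgfr4, Klb and Fgf21 were under 5 CPM in WT. So were Fgfr3, Fgfr4 and Klb in stellate-like cells and Fgfr1 and Fgf21 in T-like cells. All of these reached the filter through N-LKO alone, which favors upward ratios, and the counts and medians include them. All genes went through the same filter. Several of the ratios rest on few UMIs: Fgfr4 had 8 and 51 in endothelial-like cells, and Fgfr3 had 6 and 18 in stellate-like cells. Klb had 8 and 11 in stellate-like cells, a ratio of 1.02 (−0.41 to 2.56). With at most 10% mitochondrial UMIs per cell, which left 64 N-LKO endothelial-like cells, the Fgfr4 and Klb ratios there were both −0.087. The Met ratio there was 0.12 under that limit. The summed hepatocyte markers in endothelial-like cells were 14569 CPM in WT and 9865 in N-LKO, and the part of hepatocyte RNA in these ratios was not tested.

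How much the hepatocyte values depend on which hepatocytes are compared was seen from the clusters. In WT, Fgfr2 was 53.7 CPM in cluster 0, 12.7 CPM in cluster 9 and 279 CPM in the Malat1-rich cluster 17, and Met was 73.9, 24.0 and 198 CPM in the same order. In N-LKO, Fgfr2 was 36.6 CPM in cluster 5 and 176 CPM in the Malat1-rich cluster 6, and Met was 56.3 and 200 CPM. Malat1 itself was 8749, 1491 and 35793 CPM in the WT clusters and 4543 and 20130 CPM in the N-LKO ones. Fgfr2 and Met were thus highest where Malat1 was highest in each library. Fgf21 was 3.1, 3.5 and 1.5 CPM in the WT clusters and 12.7 and 13.6 CPM in the N-LKO ones.

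**Figure D4:**
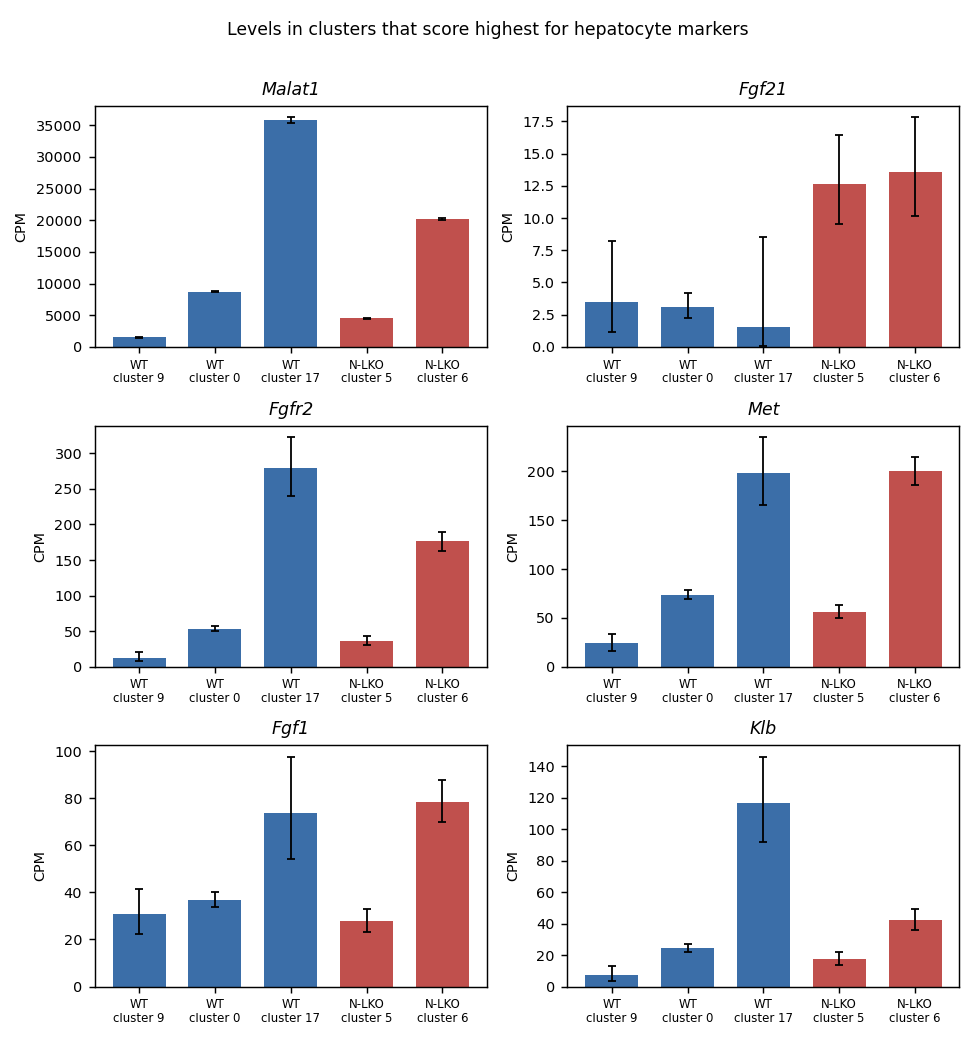
Levels of Malat1 and 5 members in the main hepatocyte-like and Malat1-rich clusters of each library, as bars in CPM from 0, with exact Poisson 95% intervals as error bars. Fgfr2, Met and Klb are highest in the Malat1-rich clusters of both libraries, while Fgf21 separates by library.

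With all hepatocyte-like and Malat1-rich cells together, the ratio of Fgfr2 was 0.77 (0.63 to 0.90) and that of Met 0.71 (0.59 to 0.83), opposite to their signs in hepatocyte-like cells. Here the median over all genes was 0.38, and it was 0.83 and 0.85 over genes with a span within 1.5 times that of Fgfr2 and Met. The values of both receptors lay near these medians. Fgf21 stood at 2.10 and Hgfac at −0.68 in the same cells, with the sign they had in hepatocyte-like cells. Past 2-fold were 1 member upward (Fgf21) and 0 downward, where 20.9% and 2.4% of all genes were. Whether reads in introns were counted is not given in the sources used here.

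**Figure D5:**
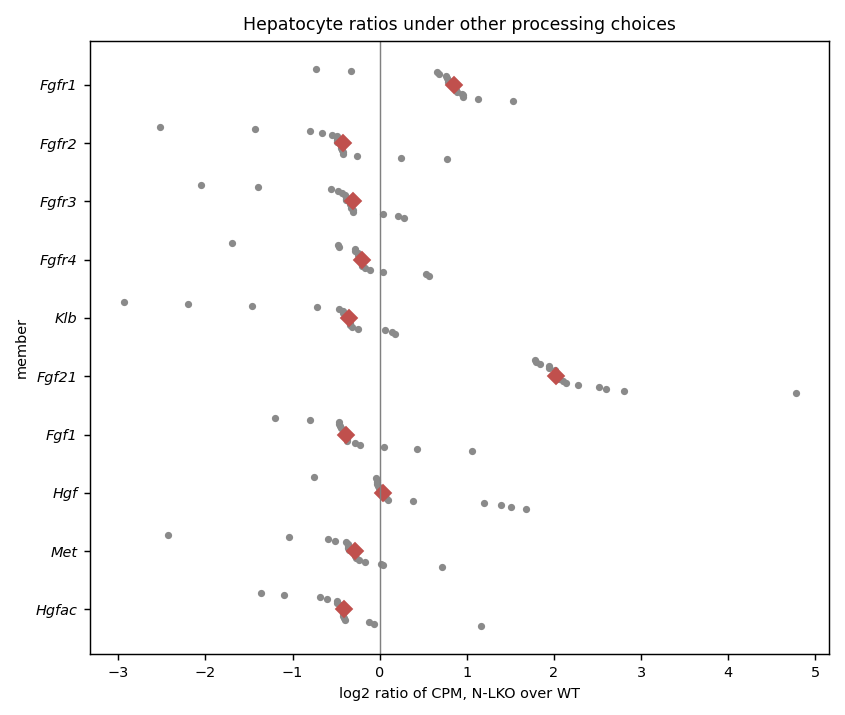
Log2 ratios of N-LKO over WT for the members in hepatocyte-like cells, with the value given in the text as a red diamond and 18 other choices of filter, cluster, scaling and free RNA handling as gray points. Fgf21 lies above 0 for every choice, and Fgfr2 and Met lie on both sides of 0.

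Position in the lobule was read from a score of pericentral against periportal genes, which put 4810 WT hepatocyte-like cells on the pericentral side and 4827 on the periportal side, with 919 near the cut. In WT, Klb was higher on the pericentral side, at 27.0 against 18.5 CPM (log2 0.54, 0.24 to 0.85), as was Hgf, at 19.8 against 11.2 CPM (0.82, 0.45 to 1.21). Hgfac was higher on the periportal side, at 39.6 against 31.7 CPM (−0.32, −0.56 to −0.08). In N-LKO, with 1046 and 1050 cells, Met was higher on the periportal side, at 65.5 against 47.1 CPM (−0.47, −0.85 to −0.11). The N-LKO intervals of Klb, Hgf and Hgfac included 0. Of 15.2 CPM of Hgf in all WT hepatocyte-like cells, 1.34 was left with the estimated free RNA part taken off. For Klb 14.1 of 22.5 CPM was left and for Hgfac 9.81 of 35.9. The part of free RNA in the differences between sides was not tested. Score genes moved along, with log2 differences of 3.34 and 4.22 for the pericentral Glul and −0.57 and −1.59 for the periportal Cyp2f2 in WT and N-LKO.

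The other genes of the pathways were read in hepatocyte-like cells against an all-gene median of 0.07. Of all genes there 5.61% were past 2-fold higher and 2.83% lower. None of the 14 other FGF ligands reached 5 CPM. Of 15 surface partners of FGF receptors 8 did and 0 were past 2-fold, and among these heparan sulfate proteoglycans Sdc1 was 131 CPM in WT and 81.3 in N-LKO and Sdc4 was 221 and 344. Of 25 shared adaptors and kinases 24 did and 0 were past 2-fold, with a median of 0.02, the transcription factor Stat3 standing at 75.7 and 109 CPM.

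Feedback and response genes had a median of 0.39. Of 12 measured, 3 were past 2-fold higher and 0 lower, beside 5.61% and 2.83% of all genes: the immediate-early genes Egr1 (90.8 to 186 CPM, log2 1.04) and Fos (40.2 to 89.7 CPM, 1.16) and the ERK phosphatase gene Dusp5 (3.03 to 9.32 CPM, 1.62). Dusp5 was under 5 CPM in WT and reached the filter through N-LKO alone, which favors an upward ratio. Errfi1, the EGFR feedback inhibitor, was 1040 and 1053 CPM. Egr1 went the other way in Malat1-rich cells, from 210 to 91.5 CPM (log2 −1.20).

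Of the proteases that activate HGF and their inhibitors, 7 of 13 reached 5 CPM, with a median of −0.004. Of these, 1 was past 2-fold higher and 0 lower, beside 5.61% and 2.83% of all genes. Plg, the plasminogen gene, was 651 and 640 CPM, F12 103 and 103 CPM, and Klkb1, the plasma kallikrein gene, 212 and 109 CPM (−0.95). Of the partners of MET, 9 of 11 reached 5 CPM, and Egfr was 443 and 492 CPM. Past 2-fold, beside the same shares, was 1 of them, the laminin receptor subunit Itga6, at 2.91 and 8.02 CPM (1.47). Itga6 reached 5 CPM in N-LKO alone, which favors an upward ratio.

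The genes that the FGFR4 and beta-klotho receptor represses or that feed its signal had a median of −0.32. Cyp8b1, the sterol 12-alpha-hydroxylase gene, went from 162 to 64.6 CPM (log2 −1.32) and was the 1 of 4 past 2-fold. Of all genes 2.83% were past 2-fold lower. Cyp7a1, the rate-limiting enzyme of bile acid synthesis, was 84.55 and 78.9 CPM (−0.10) in hepatocyte-like cells, but went from 216 to 57.5 CPM in Malat1-rich cells (−1.91, −2.22 to −1.59). Nr0b2 and Nr1h4, which encode nuclear receptors SHP and FXR, were 60.0 and 45.1 CPM and 148 and 125 CPM.

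Of 8 ATF4-related genes 5 reached 5 CPM in hepatocyte-like cells, with a median of 0.92. Of these, 2 were past 2-fold higher and 0 lower, beside 5.61% and 2.83% of all genes. Atf3, a stress-induced transcription factor, went from 22.8 to 82.8 CPM (log2 1.86) and Sesn2, a sestrin gene, from 2.41 to 5.20 CPM (1.12). Sesn2 reached 5 CPM in N-LKO alone. Ddit3 was 12.1 and 22.8 CPM (0.92) and Atf4 itself 59.2 and 48.1 CPM (−0.30). Of 9 PPARalpha targets all 9 reached 5 CPM and 0 were past 2-fold, with a median of −0.05. Cpt1a, the gate of mitochondrial fat oxidation, was 148 and 154 CPM. In Malat1-rich cells the median was 0.17 for the ATF4-related genes and −0.26 for the PPARalpha targets, against 0.05 over all genes. There 3 of 7 ATF4-related genes were past 2-fold higher and 0 lower, beside 16.9% and 11.7% of all genes.

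In stellate-like cells, where Fgfr2 and Hgf were highest, 0 of 24 shared adaptors and kinases were past 2-fold, 2 of 18 feedback and response genes were higher and 3 lower, and 2 of 9 MET partners were higher, beside 10.7% of all genes higher and 8.74% lower. Egfr went from 104 to 467 CPM (log2 2.16), while the feedback inhibitor Spry1 went from 70.9 to 33.9 CPM (−1.05) and Fos from 227 to 105 CPM (−1.10). Nrp1, a co-receptor for several growth factors, was 462 and 274 CPM (−0.75). In endothelial-like cells Egfr went from 97.3 to 493 CPM (2.34, 2.14 to 2.55), in the same direction as Met there. Hepatocyte-like cells held Egfr too, at the levels given above. The estimated free RNA share of stellate-like cells was 27.5% in WT and 33.9% in N-LKO, and that of endothelial-like cells 48.7% and 45.9%. The part of free RNA in the Egfr values was not tested.

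The genes with the most similar pattern were found by Pearson correlation of log2(CPM + 1) over 22 points, 11 classes in each of 2 libraries, among 15710 genes. Points of 1 library share its depth and free RNA. For Fgfr2 these were Ank3 (0.95), Shisa2 (0.95) and Rbms3 (0.95), and for Hgf Cpxm1 (0.90), Abcc9 (0.89) and Layn (0.88). Met was closest to Lsr (0.90), Chrm3 (0.89) and Hacd2 (0.87), Fgfr4 to Map3k13 (0.94), Ppl (0.92) and Gm47889 (0.90), and Fgfr3 to Kifc3 (0.92), Erbb4 (0.92) and Mcc (0.91). The values were lower for Fgfr1 (Plce1 at 0.87, Ptdss2 at 0.87 and Atxn1l at 0.85), Hgfac (Arhgef19, Sfxn1 and Gm17634, each at 0.84) and Klb (Omd at 0.79 and Zfp579 at 0.77).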

How the data were processed

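The authors counted UMIs with Cell Ranger (7.1.0 per the file headers), and the deposited values are unnormalized whole UMI counts for each gene in each barcode. Per the labels, the submitters' processing notes name the build mm9 and Seurat, with no Seurat version. The deposited IDs matched the GENCODE vM21 (GRCm38) annotation for 32235 of 32285 genes, and positions come from it. The libraries held 100171 barcodes and 85522287 UMIs (WT) and 90147 and 87575064 (N-LKO). Groups were taken from the labels. No column of samples was left unmapped.

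Cells with at least 1000 UMIs, at least 400 genes and at most 30% mitochondrial UMIs were kept. Doublets above a Scrublet score of 0.25 were removed (1723 of 20158 WT and 2364 of 22214 N-LKO cells). The remaining cells were clustered with scanpy 1.11.5 and leidenalg 0.10.2 (2000 variable genes, 30 components, 20 neighbors, resolution 0.3). Of 22 clusters, 17 were named from marker lists, 3 were mixed and 2 unnamed. Naming thresholds were set after seeing the data, the authors' annotation was not used here, and a difference from the study may come from rebuilt names. Of 2499 barcodes present in both libraries, 122 were used as cells in both. UMIs were summed per class and library. Poisson, Clopper-Pearson and conditional binomial intervals used scipy 1.17.1, and no test across samples was possible. The free RNA share of a class was estimated from marker genes of other cell types. Ratio and interval code was tested on simulated data. Named genes were the 10 members, Nus1, in each pathway list the 4 genes with the most UMIs and up to 4 further genes past 2-fold, and the 3 genes most correlated with a member. Not every gene the rule allows is printed, and some are not reported here. The members and lists were chosen with earlier results of these data known. Promoters came from RefSeq, and protein sequences were not used here. Alternatives to each filter, scaling and cluster choice were run, 5 of them added after seeing the data.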

Additional observations from a re-analysis of the deposited data

Results flagged for a closer look

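Some members went in opposite directions in different cell classes, and none of these differences between classes was tested across samples. The log2 ratio of Fgfr2 was 0.62 in T-like and −0.80 in stellate-like cells, a difference of 1.43. For Hgf it was 0.78 in endothelial-like and −0.49 in stellate-like cells, a difference of 1.26. For Met it was 1.96 in endothelial-like and −0.29 in hepatocyte-like cells, a difference of 2.24. For Klb it was 1.70 in endothelial-like and −0.35 in hepatocyte-like cells, a difference of 2.05, from 10 and 49 endothelial-like UMIs.

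A signal also appeared in cells that enter no comparison above. Fgf1 stood at 159 CPM (20 UMIs, 97.4 to 246) in the 80 N-LKO cells of mixed cluster 21, against 17.2 CPM in N-LKO free RNA. The 34 WT cells of that cluster had 137 CPM (7 UMIs, 55.1 to 283). Its leading genes included Igfbp5, Igfbp6, Cxcl13, Muc16 and Upk3b.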

How the results depend on the processing

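In hepatocyte-like cells the count of members past 2-fold higher in N-LKO was 1 in the report, beside 5.61% of all genes. It was 2 with a UMI minimum of 2000 (13.1% of all genes) and 3 with at most 10% mitochondrial UMIs (12.7%). It was 2 with a fold limit of 1.5 (14.5%) and 2 in Malat1-rich clusters only (16.9%). With free RNA subtracted and the total kept it was 4, where 63.2% of all genes were past the limit. The count past 2-fold lower was 0 in the report, beside 2.83% of all genes. It was 3 with at most 10% mitochondrial UMIs (20% of all genes) and 1 with clusters rich or poor in Malat1 left out (10.8%). It was 7 with free RNA subtracted (49.8%) and 2 in Malat1-rich clusters only (11.7%). The nonparenchymal count of 12 was 21 with a fold limit of 1.5, and otherwise ran from 8 (no mitochondrial limit) to 18 (free RNA subtracted). With the limit of 1.5, 10.7% to 23.7% of all genes were past it upward and 14% to 22.1% downward in these classes. Without a mitochondrial limit these shares were 5.14% to 11.6% and 6.79% to 11.5%. With free RNA subtracted they were 5.73% to 17.6% and 5.18% to 8.81%. It could not be given with a UMI minimum of 2000 or at most 10% mitochondrial UMIs, since T-like cells were not found there. Directions reversed for Fgfr4 and Klb in endothelial-like cells with at most 10% mitochondrial UMIs (−0.087 each) and for Hgfac in cholangiocyte-like cells with a UMI minimum of 2000 (1.25, against −1.39). With free RNA subtracted and the total kept, Fgf1 and Hgfac in hepatocyte-like cells, below 0 in the report, were at 1.06 and 1.16. The median over all genes was 1.54 there. The hepatocyte Fgf21 ratio was above 0 in all 18 alternatives (1.79 to 4.78), whereas Fgfr2 ran from −2.52 to 0.77 and Met from −2.42 to 0.71. In stellate-like cells, over 14 alternatives, Fgfr2 ran from −0.92 to −0.56 and Hgf from −0.58 to −0.05. Without the cells whose barcode is in both libraries the counts were again 1, 0 and 12. The causes were not tested. No paired analysis was possible because each group has 1 library, and for the same reason no replicate could be left out.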

Other observations

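Hgf levels were also read in the blood-derived classes that the comparisons above leave out. B-like cells had 5 Hgf UMIs in 316 WT cells (11.98 CPM) and 90 in 784 N-LKO cells (73.9 CPM), a log2 ratio of 2.50 (1.35 to 4.28), where 13.3% of all genes were past 2-fold higher. At 1000 UMIs per cell, 1.27% of WT and 6.51% of N-LKO B-like cells had an Hgf UMI. The summed level of the 8 endothelial markers in these cells was 1328 and 1247 CPM and that of the 8 stellate markers 86.3 and 97.0 CPM, while that of the 7 monocyte and macrophage markers was 463 and 1252 CPM and that of the 6 neutrophil markers 62.3 and 214 CPM. The part of these cells in the Hgf value was not tested. Neutrophil-like cells, 103 in WT, had 4 and 83 Hgf UMIs (27.9 and 75.9 CPM), a log2 ratio of 1.28 (0.03 to 3.35). The ratio was 0.85 in dendritic-like, 0.87 in plasmacytoid dendritic-like and −0.08 in plasma-like cells, with intervals that included 0. Free RNA held Hgf at 16.0 and 33.1 CPM, and its part in either value was not tested.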
